A study of Mus musculus with 23 samples.

Results

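The reads of the paternal allele were compared with those of the maternal allele in 10 mouse embryos in which Zfp57 was present in the oocyte and in the embryo (M+Z+), out of 23 embryos in the series. The members were the 10 M+Z+ embryos that have both a paternal and a maternal column in the allelic count tables, 6 female and 4 male, and the alleles were paired within each embryo. A gene was tested if it lies on an autosome and its allele-assigned reads averaged 20 or more per M+Z+ embryo. This held for 6496 of the 26183 genes in the tables.

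RNA-seq libraries, 1 per embryo, were made from whole E13.5 embryos to ask what the loss of Zfp57 does to imprinted genes in females and males. Females of the 129 strain were mated with males that carried a Zfp57 mutation on a DBA/2J background, so that every embryo was a 129/DBA hybrid. The other embryos were 6 M-Z+ embryos, without Zfp57 in the oocyte but with a functional copy from the father, and 7 M-Z- embryos, which lacked both. Embryos without Zfp57 in the oocyte come from mothers homozygous for the mutation, so the M+Z+ embryos had other mothers. Mother and litter therefore cannot be told apart from genotype where M+Z+ embryos are compared with M-Z+ or M-Z- embryos. The genotype in the titles of M+Z+ samples is Zfp57-/+, so these embryos may carry 1 mutant copy, and from which parent the titles do not say.

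Each embryo was a separate library, and litters are not given, so the p-values below measure the spread between these embryos. The paper's figures label some M+Z+ embryos of each sex with a prime, and no division of the embryos by that label was fitted. Only 129 mothers were crossed with DBA fathers. The parent and the strain of an allele therefore cannot be told apart in any result below, because no cross in the other direction was analysed here. Reads were sorted by strain, so a read called maternal below is one assigned to 129, and one called paternal is one assigned to DBA. The fathers descended from 129 mice with the deleted Zfp57, crossed back to DBA/2J over generations, and were DBA only in the main. Where a father's chromosome still holds 129 sequence, as it may beside the deleted Zfp57, its reads would be counted as maternal.

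Genomic imprinting is the expression of a gene from the allele of 1 parent. DNA methylation laid down in the egg or the sperm marks an imprinting control region on that parent's chromosome, and the mark is kept through the early embryo while most other methylation is erased. ZFP57 is a zinc finger protein that binds a methylated motif in these regions and helps to keep the mark. Imprinted genes lie in clusters, in which protein-coding genes and long non-coding RNAs are often expressed from opposite alleles, and many of them act in growth, placental function and the brain. Some are imprinted in a few tissues only, such as placenta or neurons, and are read from both alleles elsewhere.

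Allelic balance was measured by the P-score, for which 0.5 is subtracted from the paternal share of a gene's allele-assigned reads. A gene read only from the maternal allele has a P-score of -0.5, a balanced gene 0 and a gene read only from the paternal allele 0.5. A gene was called when edgeR's quasi-likelihood test with Benjamini-Hochberg adjustment gave an adjusted p below 0.05 and the mean P-score over embryos was at least 0.1 in size. A called gene at 0.4 or more in size is described below as one-sided, and the other called genes as partly biased.

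Allele-assigned reads numbered 2.71 to 3.94 M per M+Z+ embryo (in units of mega, median 2.87 M), beside totals of 16.3 to 24.1 M gene-assigned reads. A tested gene had a median of 159 allele reads per embryo, and 12640 autosomal genes had no allele read in any M+Z+ embryo. The libraries held the genes of whole embryos. All 14 whole-embryo markers (such as Afp of liver, Col2a1 of cartilage and Neurod6 of cortical neurons) stood at 14.9 CPM or more (a gene's counts per mega-count of its library), whereas the 9 trophoblast markers summed to 0.112 to 0.673 CPM with Prl3d1 and Prl2c2 at 0, and the decidual markers to at most 0.0560 with Prl3c1 at 0. Since whole embryos were sequenced, fewer cells of a type and less RNA per cell cannot be told apart, and a P-score is an average over all cell types.

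Among the females, 4 of the 6 M+Z+ columns carried only 2 header names, WT3 and WT4, each used for a pair of embryos. These 4 embryos stood apart from the other 6 in an interval of chromosome 17 described below, and are called the WT3 and WT4 embryos. The interval holds Zfp57, and there nearly all their reads were assigned to 129, as in all 7 M-Z- embryos, and whether these 4 members inherited the fathers' deleted copy, or carry another genotype than their label, was not tested. At Plagl1, for example, they had P-scores from 0.484 to 0.495, beside 0.488 to 0.492 in the other 6 and -0.0709 to -0.0420 in M-Z- embryos. At Meg3 they ranged from -0.495 to -0.492, just outside the -0.499 to -0.495 of the other 6, and the median over called paternal list genes was 0.461 to 0.482 in them and 0.478 to 0.492 in the other 6. Several results that rest on them are also given without them, but not all.

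Most genes were read about equally from both alleles. The median of the mean P-scores over the 6496 genes was -0.00269, with a 5th percentile of -0.333 and a 95th percentile of 0.239. The median over genes in a single embryo lay between -0.00355 and 0. The paternal allele took 43.3 to 45.8% of autosomal allele reads, but 50.1 to 51.5% once the adult beta-globin genes were left out, so those few genes set the tilt. Hbb-bs and Hbb-b1 hold identical counts, as do Hbb-bt and Hbb-b2. Their reads entered the sum under both names, which enlarges the tilt.

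The test called 1157 of the 6496 genes, 17.8%. The paternal allele was higher in 543 genes (8.36%) and the maternal allele in 614 (9.45%). Of the called genes, 1011 lay on the same side in all 10 embryos. One-sided expression was found for 505 genes, 215 paternal and 290 maternal, and partial bias for 652 genes, 328 paternal and 324 maternal. Without the WT3 and WT4 embryos 1184 genes were called.

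**Figure D1:**
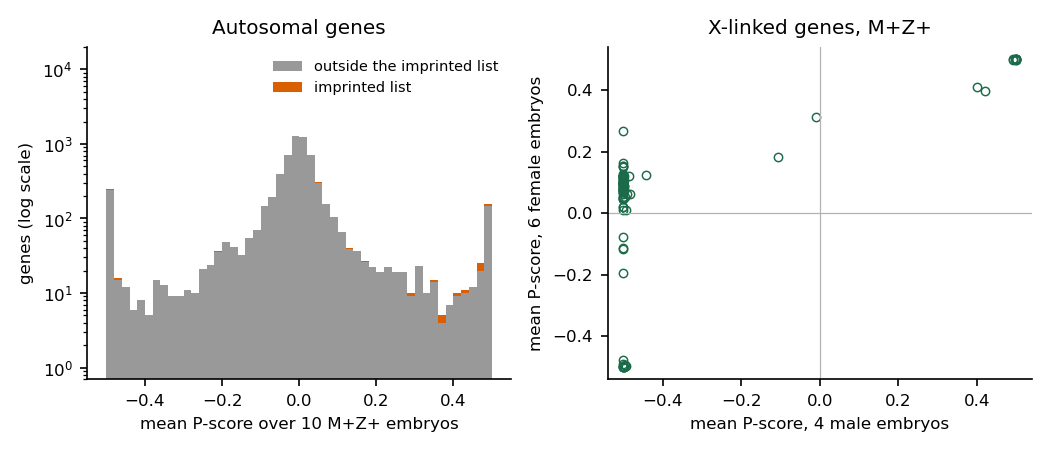
Left, the number of autosomal genes (log scale) by mean P-score over 10 M+Z+ embryos, with the imprinted list stacked in orange, showing a central peak at 0 and separate piles at -0.5 and 0.5. Right, each circle is an X-linked gene, by its mean P-score in 4 male and in 6 female M+Z+ embryos; most lie at -0.5 in males, and 11 lie at 0.4 or above in males and between 0.396 and 0.5 in females.

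Imprinted genes were followed with a list of 119 known imprinted genes, of which 110 were in the tables. Their listed allele is the one from which they are known to be expressed, and a gene listed as restricted is known to be imprinted mainly in some tissues. Only 44 had enough allele reads to test, in 21 regions. A further 47 had no allele read in any M+Z+ embryo although 29 of them had at least 100 total reads per embryo, and 19 had allele reads below the minimum. H19, a growth-restraining non-coding RNA, had 120039 total reads per embryo and 0 allele reads. Igf2, the fetal growth factor, had 70967 total reads and 0 allele reads, and Peg3, a zinc finger gene, had 15857 total and 0.7 allele reads. Grb10, Mest, Cdkn1c and Peg10 likewise had 8891 to 23536 total reads and no allele read. The allelic state of these genes was therefore not measurable in these tables.

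Of the 44 tested list genes, 29 were called, 65.9%, against 17.5% of the 6452 tested genes outside the list. 21 were paternally and 8 maternally biased, and 28 of the 29 lay on the listed side. Among genes listed as paternally expressed in the embryo, 17 of 17 were called, and among those listed as maternally expressed in the embryo, 7 of 7. Among genes listed as restricted, 3 of 7 paternal and 1 of 13 maternal genes were called on the listed side, and 1 maternal gene was called on the other side. These genes were listed for their known imprinting, so the counts are a description of how far this cross shows it.

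**Figure D2:**
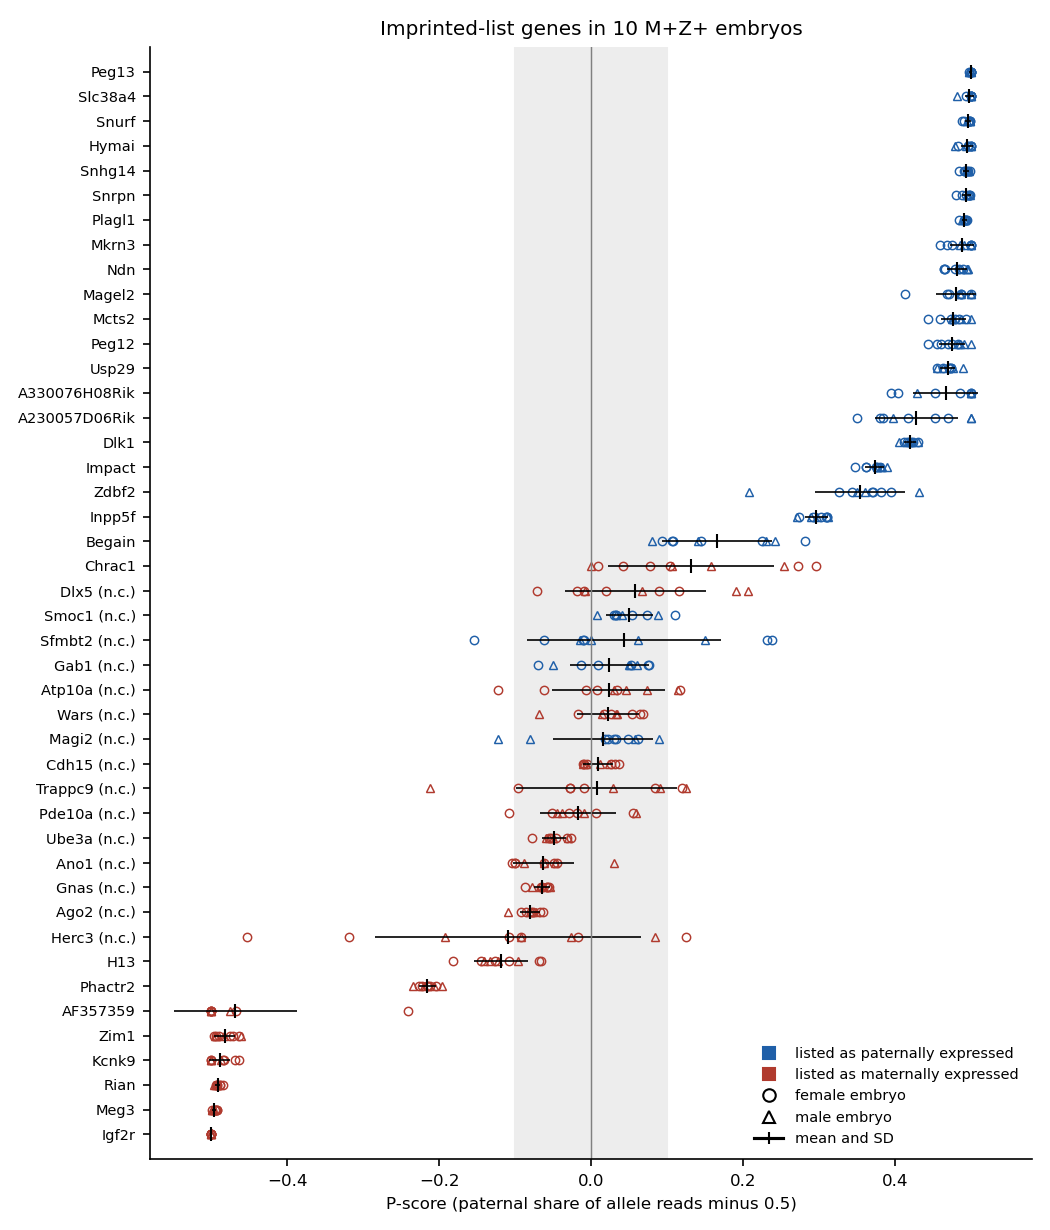
P-score of each tested imprinted-list gene (rows) in each of 10 M+Z+ embryos, circles for females and triangles for males, with the mean and SD in black; n.c. marks genes that were not called and the grey band a P-score under 0.1 in size. Genes listed as paternally expressed (blue) fill the right edge and those listed as maternally expressed (red) the left edge, with a block of uncalled genes around 0.

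The gene windows shown next are start regions of list genes that hold a match to the motif of ZFP57, and were picked for having one. Of the 10 list genes with a match, Plagl1, Hymai, Snurf, Zdbf2 and Meg3 differed in M-Z- embryos, as given below, and Mcts2, Zim1, Kcnk9, Herc3 and Wars did not. The windows shown were picked by hand from the 10, so that nothing follows from how many of them differed. ZFP57 is known to bind the 6-base motif TGCCGC when its CG is methylated. Each window runs from 250 bases before to 50 bases after the gene's start, and was read 5′ to 3′ on the gene's strand from the mm9 reference genome, which is neither 129 nor DBA. Capitals mark TGCCGC or its reverse complement GCGGCA, which can overlap each other but do not in these windows.
Plagl1 (paternal, chr10:12810388-12810687, plus strand): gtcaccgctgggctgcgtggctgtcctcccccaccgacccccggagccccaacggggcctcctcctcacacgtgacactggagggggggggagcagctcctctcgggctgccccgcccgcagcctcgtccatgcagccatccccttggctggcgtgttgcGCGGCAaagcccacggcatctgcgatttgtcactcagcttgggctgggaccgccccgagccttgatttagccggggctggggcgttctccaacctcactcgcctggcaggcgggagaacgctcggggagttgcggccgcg
Snurf (paternal, chr7:67150036-67150335, minus strand): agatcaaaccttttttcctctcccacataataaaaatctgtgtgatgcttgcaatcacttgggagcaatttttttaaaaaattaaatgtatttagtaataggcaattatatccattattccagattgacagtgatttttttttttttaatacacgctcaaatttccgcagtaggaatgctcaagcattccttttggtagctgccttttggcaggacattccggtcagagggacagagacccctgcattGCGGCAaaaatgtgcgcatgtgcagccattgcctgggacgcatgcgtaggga
Zdbf2 (paternal, chr1:63246682-63246981, plus strand): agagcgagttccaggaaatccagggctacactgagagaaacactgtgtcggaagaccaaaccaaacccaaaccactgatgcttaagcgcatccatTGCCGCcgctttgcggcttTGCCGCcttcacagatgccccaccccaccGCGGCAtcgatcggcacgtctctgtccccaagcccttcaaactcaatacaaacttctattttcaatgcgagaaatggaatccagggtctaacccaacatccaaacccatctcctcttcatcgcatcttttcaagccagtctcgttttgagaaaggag
Mcts2 (paternal, chr2:152512634-152512933, plus strand): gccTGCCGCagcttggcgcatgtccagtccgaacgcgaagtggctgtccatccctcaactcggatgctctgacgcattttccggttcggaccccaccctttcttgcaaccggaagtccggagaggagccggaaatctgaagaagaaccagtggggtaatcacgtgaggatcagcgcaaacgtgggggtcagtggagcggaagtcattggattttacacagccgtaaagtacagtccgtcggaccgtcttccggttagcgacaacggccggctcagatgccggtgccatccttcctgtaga
Meg3 (maternal, chr12:110778956-110779255, plus strand): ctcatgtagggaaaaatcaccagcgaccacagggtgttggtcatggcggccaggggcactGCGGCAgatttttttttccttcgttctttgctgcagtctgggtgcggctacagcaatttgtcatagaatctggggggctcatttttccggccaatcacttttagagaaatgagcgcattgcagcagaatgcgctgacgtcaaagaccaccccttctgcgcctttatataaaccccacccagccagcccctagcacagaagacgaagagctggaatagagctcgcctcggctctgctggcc

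The motif was counted on both strands around every tested gene with a window. It occurred in 1317 of 6492 such windows, 20.3%. Among list genes it occurred in 5 of 21 called paternal (23.8%), 3 of 8 called maternal (37.5%) and 2 of 15 not called. Of the 21 list genes that differed in M-Z- embryos it occurred in 5 (23.8%), near the share of all windows, and among one-sided genes outside the list in 122 of 483 (25.3%). In 4000 bases around the start, 6 or more matches were found at 91 genes, 1.40% of all, at 5 of 21 paternal and 1 of 8 maternal list genes, and at 6 of 483 one-sided genes outside the list (1.24%). Snurf had 10, Usp29 had 7, and Plagl1, Hymai, Peg13 and Kcnk9 had 6 each. Plagl1 and Hymai start 13 bases apart and so share these matches. A match is a description of the sequence, and neither methylation nor binding was measured in the data used here.

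The Snrpn cluster on chromosome 7, whose paternal genes act mainly in the brain, was read almost wholly from the paternal allele. Snrpn, which encodes a splicing protein of neurons (chr7:67127381-67595063), had P-scores from 0.480 to 0.499 with a median of 0.495, from 7123 paternal and 46 maternal reads. Snurf, its upstream reading frame, ranged from 0.488 to 0.499, and Snhg14, the long non-coding RNA of the cluster, from 0.484 to 0.498. These 3 genes overlap on 1 strand, and how the authors' allelic counting divided reads among overlapping genes is not given, so they are not independent values. Every embryo with a P-score was on the paternal side at all genes of the cluster that were called.

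Farther along the cluster, Ndn (necdin, a neuronal growth suppressor, chr7:69493163-69494813) had P-scores from 0.464 to 0.496 with a median of 0.485. Magel2, a regulator of protein recycling and ubiquitination, ranged from 0.413 to 0.5 around a median of 0.486. Mkrn3, a ubiquitin ligase that holds back puberty, ranged from 0.458 to 0.5, and Peg12 from 0.444 to 0.5. The non-coding A330076H08Rik and A230057D06Rik reached means of 0.467 ± 0.0431 (SD, n = 10) and 0.428 ± 0.0549 (n = 9) on only 41.1 and 24.0 allele reads per embryo.

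Within the same cluster, Ube3a, a ubiquitin ligase known to be maternal in neurons only, had P-scores from -0.0777 to -0.0271, all maternal, with a mean of -0.0486 ± 0.0155 (SD, n = 10). Its adjusted p was 3.33e-06 by edgeR's quasi-likelihood test, but the bias was below the 0.1 minimum. Atp10a, a lipid flippase, ranged from -0.123 to 0.117 and was not called (adjusted p 0.503 by edgeR's quasi-likelihood test).

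Plagl1, a zinc finger transcription factor that restrains growth (chr10:12810638-12851501), had the most allele-assigned reads of the tested list genes. Its P-score lay between 0.484 and 0.495 with a median of 0.491, from 60420 paternal and 548 maternal reads, and the log2 paternal to maternal ratio was 6.81 (adjusted p 7.33e-15, edgeR's quasi-likelihood test). Hymai, a non-coding RNA inside the same gene, had a mean of 0.495 ± 0.00761 and overlaps Plagl1. Phactr2, an actin regulator on the other strand of the region, was partly maternal in all 10 embryos, with P-scores from -0.234 to -0.196. The narrow range of Phactr2 (SD 0.0111 on 1346 allele reads per embryo) separated it from both 0 and -0.5 in every embryo.

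In the Dlk1-Dio3 region of chromosome 12, protein-coding and non-coding genes lay on opposite sides. Dlk1, a membrane protein of the Notch ligand family (chr12:110691033-110701546), had P-scores from 0.405 to 0.430 with a median of 0.420, so that maternal reads were present in every embryo, 1669 against 19145 paternal. Meg3, a long non-coding RNA (chr12:110779206-110809939), ranged from -0.499 to -0.492, with 168 paternal and 41515 maternal reads. Rian, the next non-coding RNA, ranged from -0.496 to -0.485, and the short AF357359 within its bounds from -0.5 to -0.241. Begain, a synaptic scaffold gene upstream of Dlk1, was partly paternal, from 0.0806 to 0.281 on 30.9 reads per embryo. Wars, a tRNA synthetase gene beside them, was not called, with a mean of 0.0225 ± 0.0410 (SD, n = 10).

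The other called list genes on the paternal side fell into one-sided and partly biased groups. Peg13, a non-coding RNA inside Trappc9 (chr15:72636032-72640754), had 3796 paternal and 3 maternal reads and P-scores from 0.497 to 0.5. Slc38a4, an amino acid transporter, ranged from 0.481 to 0.5, and Usp29, a deubiquitinase gene of the Peg3 region, from 0.455 to 0.489. Mcts2, a retrogene inside H13 that encodes a translation factor, ranged from 0.443 to 0.5. These 4 genes were one-sided in all 10 embryos.

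Impact, a regulator of the translation kinase GCN2, had P-scores from 0.347 to 0.389, with a median of 0.376. Inpp5f, an inositol phosphatase gene (chr7:135754879-135839950) of which a single isoform is known to be imprinted, ranged from 0.270 to 0.312 with a median of 0.300. Zdbf2, a zinc finger gene linked to growth (chr1:63246932-63361149), ranged from 0.208 to 0.432 with a median of 0.365 on 63.2 allele reads per embryo. Maternal reads of these 3 genes were found in all 10 embryos, and no embryo reached 0.5.

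On the maternal side, Igf2r, the receptor that clears IGF2 (chr17:12875272-12962572), had 2531 maternal and 0 paternal reads in all 10 embryos, which allows a paternal share of up to 0.119%. That limit holds only if the variants of Igf2r are placed on the right allele, which was not tested. Only 253.1 of its 8336.3 total reads per embryo were allele-assigned. Zim1, a zinc finger gene beside Peg3, ranged from -0.497 to -0.461. Kcnk9, a potassium channel gene known to be maternal in brain (chr15:72337416-72378129), ranged from -0.5 to -0.463. H13, which encodes an intramembrane protease and contains Mcts2, was partly maternal, from -0.182 to -0.0656, with an adjusted p of 3.67e-07 by edgeR's quasi-likelihood test. Mcts2 and H13 thus lay on opposite sides in every embryo.

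Kcnk9 and Peg13 lie beside Trappc9, Chrac1 and Ago2, which are listed as maternal in brain. Trappc9, a vesicle transport gene, was not called, with a mean of 0.00731 ± 0.106. Ago2, the Argonaute nuclease, was maternal in all 10 embryos but small in size, from -0.110 to -0.0637. Chrac1, a chromatin remodelling subunit, lay on the side opposite to its listing, from 0 to 0.296 with a median of 0.105. It was called at an adjusted p of 0.00592 by edgeR's quasi-likelihood test, and was not called in the females alone.

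The 15 list genes that were not called had mean P-scores between -0.109 and 0.0581. In 5 of them, Ago2, Gnas, Ano1, Ube3a and Smoc1, edgeR's adjusted p was below 0.05 with a bias under 0.1. Gnas, which encodes the stimulatory G protein alpha subunit and several overlapping transcripts (chr2:174109821-174172243), was maternal in all 10 embryos, from -0.0874 to -0.0542, on 3898 reads per embryo. Herc3 had the largest mean of the 15, -0.109 ± 0.175 (SD, n = 10), but its P-scores ran from -0.452 to 0.125 on 22.2 reads per embryo (adjusted p 0.0901 by edgeR's quasi-likelihood test). Dlx5, Sfmbt2, Gab1, Magi2, Pde10a and Cdh15 had both paternal-sided and maternal-sided embryos.

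The same genes were then set beside embryos of the other genotypes. Both comparisons use the same 10 M+Z+ embryos, so they are not independent of each other. edgeR's quasi-likelihood test called a difference in allelic balance between M-Z- and M+Z+ embryos for 100 of 6496 genes (1.54%), 10 towards the paternal (0.154%) and 90 towards the maternal allele (1.39%). Of these, 71 lay within 10 Mb of Zfp57, where 150 of the 6496 tested genes lie. Of the 29 list genes called in M+Z+, 21 were among the 100, and in all 21 the mean moved towards 0. In M-Z+ against M+Z+ embryos the same test called 10 genes (0.154%), 9 of the Snrpn cluster and Zdbf2, all of them list genes and all towards 0. Without the WT3 and WT4 females 114 genes were called in M-Z- and 12 in M-Z+. The M-Z- count depended on single libraries, with 60 genes without female M-Z- replicate 4 and 65 or 66 without female M+Z+ replicate 1 or 2 or male M+Z+ replicate 1, 2 or 3, and it was 24 with females alone and 158 with males alone.

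Plagl1 fell from 0.491 in M+Z+ to a mean of -0.0473 ± 0.0105 (SD, n = 7) in M-Z- embryos, and was at 0.492 ± 0.00490 (n = 6) in M-Z+. Snrpn stood at 0.122 ± 0.0985 in M-Z+ and at -0.0220 ± 0.0267 in M-Z-, with adjusted p of 1.64e-14 and 1.17e-16 by edgeR's quasi-likelihood test. Dlk1 stood at 0.423 ± 0.00401 in M-Z+ and 0.0193 ± 0.0341 in M-Z-, and Meg3 at -0.466 ± 0.0363 and 0.0186 ± 0.0104. Zdbf2 stood at 0.124 ± 0.132 and -0.0826 ± 0.0657. In M-Z- embryos all 5 of these genes thus had means within 0.1 of 0, whereas in M-Z+ embryos the means of Plagl1, Dlk1 and Meg3 were one-sided.

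Some list genes showed no called difference. Mcts2 stood at 0.479 ± 0.00851 in M-Z-, Slc38a4 at 0.499 ± 0.00302, Igf2r at -0.499 ± 0.00255, Zim1 at -0.419 ± 0.0265 (n = 4) and Kcnk9 at -0.471 ± 0.0334 (n = 6), none of which was called against M+Z+. The 4 values of Zim1, -0.439 to -0.380, nevertheless lay wholly outside its range in M+Z+, -0.497 to -0.461. H13, Begain and Chrac1 were not called either. Begain, with 30.9 allele reads per M+Z+ embryo, nevertheless had a mean of 0.165 in M+Z+ and of 0.0318 ± 0.0861 (n = 7) in M-Z-. Its adjusted p was 0.172 by edgeR's quasi-likelihood test. Peg13 kept a paternal mean of 0.207 ± 0.142 in M-Z-, lower than the 0.499 of M+Z+ (adjusted p 4.53e-09, edgeR's quasi-likelihood test). A330076H08Rik and A230057D06Rik passed below 0 in M-Z-, to -0.233 ± 0.0396 and -0.288 ± 0.0267.

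**Figure D3:**
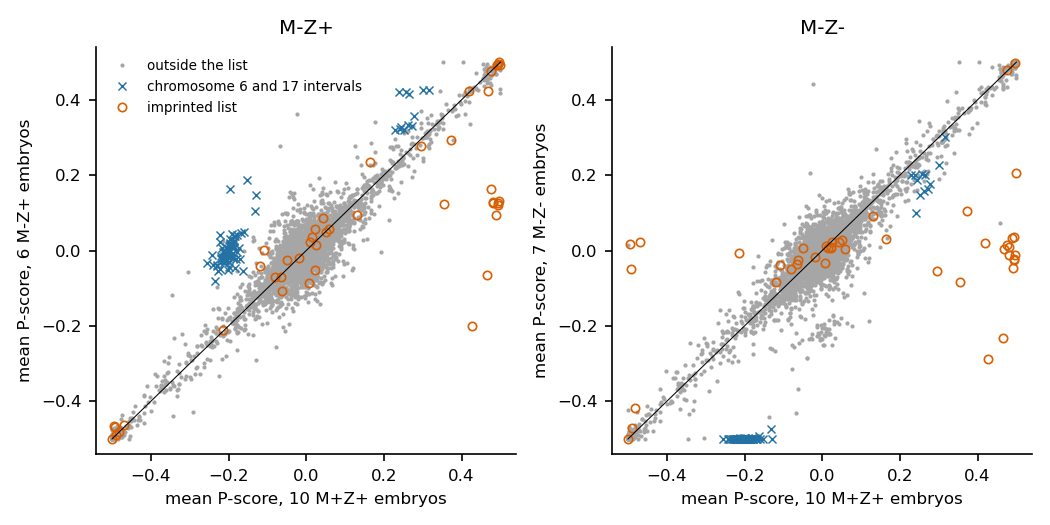
Mean P-score of each tested gene in 10 M+Z+ embryos against its mean in 6 M-Z+ embryos (left) and 7 M-Z- embryos (right); the line marks equal values. Of the 22 one-sided list genes (orange) 13 stay one-sided in M-Z+ and 5 in M-Z-, and the others leave the line towards 0. Of the 483 one-sided genes outside the list (grey) 475 and 473 stay one-sided, and the genes of the chromosome 6 and 17 intervals (blue crosses) form groups of their own.

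Outside the list, 1128 of 6452 genes were called (17.5%), 522 paternal and 606 maternal. One-sided expression was found for 483 of them, 199 paternal and 284 maternal, and 64 genes outside the list stood at exactly 0.5 and 115 at exactly -0.5 in the mean. Of the 483, 475 were one-sided on the same side in M-Z+ and 473 in M-Z-, whereas of the 22 one-sided list genes 13 and 5 were. Only 2 of the 483 changed by edgeR's test in M-Z-, Mir770 and Gm30189, and none in M-Z+. Mir770 lies inside Meg3 and Gm30189 inside the bounds of Gnas on the other strand, and both were named here after their values were seen.

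The genes with the largest mean P-scores were named by rule, and since 49 of the 762 candidates stood at exactly 0.5 and 65 at -0.5, ties were broken by the number of allele reads, after the values were seen. At 0.5 in all 10 embryos were Tubb3, a neuronal tubulin (23081 paternal reads and 0 maternal, which allows a maternal share of up to 0.0130%), Prdx1, an antioxidant peroxidase (20972 reads), and Adh5, an alcohol dehydrogenase (19139 reads). Elob, Hspd1, Akt1s1, Gcsh, Mad2l1, Fbxo22 and Selenot followed, with 7302 to 17443 paternal reads each and no maternal read. At -0.5 in all 10 embryos were Rpl15, a large-subunit ribosomal protein (23724 maternal reads and 0 paternal, up to 0.0126%), Pgam1, a glycolytic enzyme (6535 reads), and Actn4, an actin crosslinker (3736 reads). Polr2e, H2az2, Zfp330, U2af1, Selenbp1, Smarcc1 and E2f6 had 2161 to 3341 maternal reads and no paternal read. In M-Z+ and M-Z- embryos all 20 stayed one-sided on the same side, E2f6 at -0.498 in both being the farthest from its end.

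These one-sided genes had fewer of their reads assigned to an allele. The median share of a gene's total reads that was allele-assigned was 10.7% for the 483 one-sided genes outside the list, 32.4% for genes below 0.1 in size, 36.5% for partly biased genes and 25.3% for the 22 one-sided list genes. Among the 20 genes named above the share ran from 3.83% in Smarcc1 to 99.4% in Adh5. The part of this share in the one-sided values was not tested.

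The alpha- and beta-globins of red cells were among the most deeply read genes, and are named here after their values were seen. Hbb-bs and Hbb-b1, which overlap and hold identical counts, stood at -0.5 with 114 paternal and 1115864 maternal reads. Hbb-bt and Hbb-b2, another overlapping pair, had 146 paternal and 608538 maternal reads, and Hba-a1 with Hba-a2 stood at -0.488 ± 0.00857. Hba-a1 ran from -0.486 to -0.477 in female replicates 1 and 2, the first WT3 female and male replicates 1 to 3. In the remaining M+Z+ embryos it ran from -0.499 to -0.494, and in all M-Z+ and M-Z- embryos from -0.499 to -0.495. Tuba1b, described below, divided the same M+Z+ embryos, from -0.322 to -0.295 and from -0.272 to -0.256. How many genes divide so is not given here. The first group has as many females and males as the paper's figures label with a prime, and which columns those are is not given. What divides the embryos was not tested. The embryonic globin Hbb-bh1, a neighbour of Hbb-b1, was partly paternal instead, from 0.318 to 0.413, and Hba-x, the embryonic alpha-globin, was near balance at -0.0189 ± 0.0205. The adult globins are near-identical copies, and the authors kept only reads that map to 1 place, so their values rest on the reads that tell the copies apart and are uncertain.

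Of 33 tested ribosomal protein genes 8 were called (24.2%), a share near the 17.8% of all genes, 4 on each side, and a median P-score of 0.0119. Rps9 had 18 paternal and 140188 maternal reads, and Rpl37 had 0 paternal and 497 maternal reads. Ybx1, an RNA-binding protein (131045 paternal and 46 maternal reads), and Eef2, a translation elongation factor (90118 and 10), were one-sided as well, and were named after their values were seen.

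Of the 86 partly biased genes outside the list with at least 500 allele reads per embryo, 72 had an SD of at most 0.03 and the same side in all 10 embryos, limits chosen after the values were seen. The genes named next were taken from these for a small SD, so that it is no finding. Tuba1a and Tuba1b, neighbouring alpha-tubulin genes on chromosome 15, lay on opposite sides, with P-scores from 0.231 to 0.270 and from -0.322 to -0.256. As near-identical paralogues they were measured only by reads that tell them apart, and are uncertain. Gapdh, the glycolytic enzyme often used as a reference gene, was maternal in all 10 embryos, from -0.240 to -0.157. Hnrnpu, a nuclear RNA-binding protein, ranged from -0.395 to -0.347, Id3, an inhibitor of helix-loop-helix factors, from -0.388 to -0.312, and Arf1, a vesicle traffic GTPase, from -0.317 to -0.278. On the paternal side Pcnp ranged from 0.300 to 0.327, Rnf7 from 0.310 to 0.346 and Arpp19, a phosphatase inhibitor of mitosis, from 0.331 to 0.368. The means of these genes in M-Z+ and M-Z- embryos were not called as different from M+Z+.

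2 genes known to differ in sequence or copy number between mouse strains were tested. Hc, complement C5, of which some strains carry a null allele, was maternal in all 10 embryos, from -0.306 to -0.203 (adjusted p 2.52e-10, edgeR's quasi-likelihood test). Glo1, a glyoxalase that is duplicated in some strains, ranged from -0.00673 to 0.0377 and was not called. Of the 8 whole-embryo markers with enough allele reads, Myh6 of heart muscle (0.116 ± 0.0427) and Hbb-bh1 were called (17.8% of all tested genes were), and Tnnt2, Hba-x, Col2a1, Neurod6, Afp and Epcam were not, with means from -0.0313 to 0.0414.

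Genes near the imprinted clusters were also looked at. Of 134 tested genes outside the list that lie within 0.5 Mb of a list gene, 30 were called (22.4%, against 17.8% of all genes) and 10 were one-sided, where 7.77% of all tested genes were. Of the 30, 3 also differed in M-Z-, beside 29 of all 1157 called genes and 8 of the 1128 called genes outside the list. Mir770 stood at -0.5 in M+Z+ and 0.0134 ± 0.117 in M-Z-, and Gm30189 at 0.457 ± 0.0401 and 0.0720 ± 0.165. Adat2, a tRNA deaminase gene near Phactr2 on chromosome 10, had P-scores from -0.194 to -0.0689 in M+Z+, and a mean of -0.0431 ± 0.0608 in M-Z- (adjusted p 0.0275, edgeR's quasi-likelihood test).

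X-linked genes gave a check of the assignment of reads that uses no autosome. Male embryos inherit their X chromosome from the mother alone. Of 93 X-linked genes with at least 20 allele reads and a P-score in males, 80 stood at or below -0.4 in the 4 male M+Z+ embryos, 63 of them without a paternal read. But 11, 11.8%, stood at or above 0.4, and their female means lay between 0.396 and 0.5. Males have no paternal X chromosome, so the check failed for these 11 genes, and the cause was not tested. Morf4l2, a chromatin gene, stood at 0.499 in males on 4048 reads per embryo, Atp6ap1, a proton pump subunit, at 0.491 on 787.6, and Las1l, a ribosome assembly factor, at 0.5 on 609.1. The paternal share of X-linked allele reads in males was 34.3 to 37.3% with these 11 genes and 0.777 to 0.868% without them.

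In females, where both X chromosomes are present, 69 of the genes that were maternal in males had mean P-scores from -0.194 to 0.267, with a median of 0.0924. A further 11, such as Hnrnph2, Otud5, Firre and Fmr1, were maternal-sided in both sexes. One-sided values were found in females for 21 of 94 X-linked genes (22.3%), and on autosomes for 7.77% of tested genes. How many of the one-sided autosomal genes are assigned as the 11 X-linked genes are was not tested.

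Within 2 intervals the 10 embryos were not alike. Split genes were defined, after the values were seen, as genes one-sided in at least 3 embryos and near balance (within 0.25 of 0) in the others. There were 88, of which 71 lay in a single interval of chromosome 17 (chr17:33661030-37211250, 3.55 Mb, Adamts10 to Gabbr1) and 12 in another at the distal end of chromosome 6 (chr6:147995938-149511848, 1.52 Mb, Far2 to Bicd1). The remaining 5, Nfx1, Frem1, Txlna, Pcyox1 and Tbc1d23, lay apart.

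**Figure D4:**
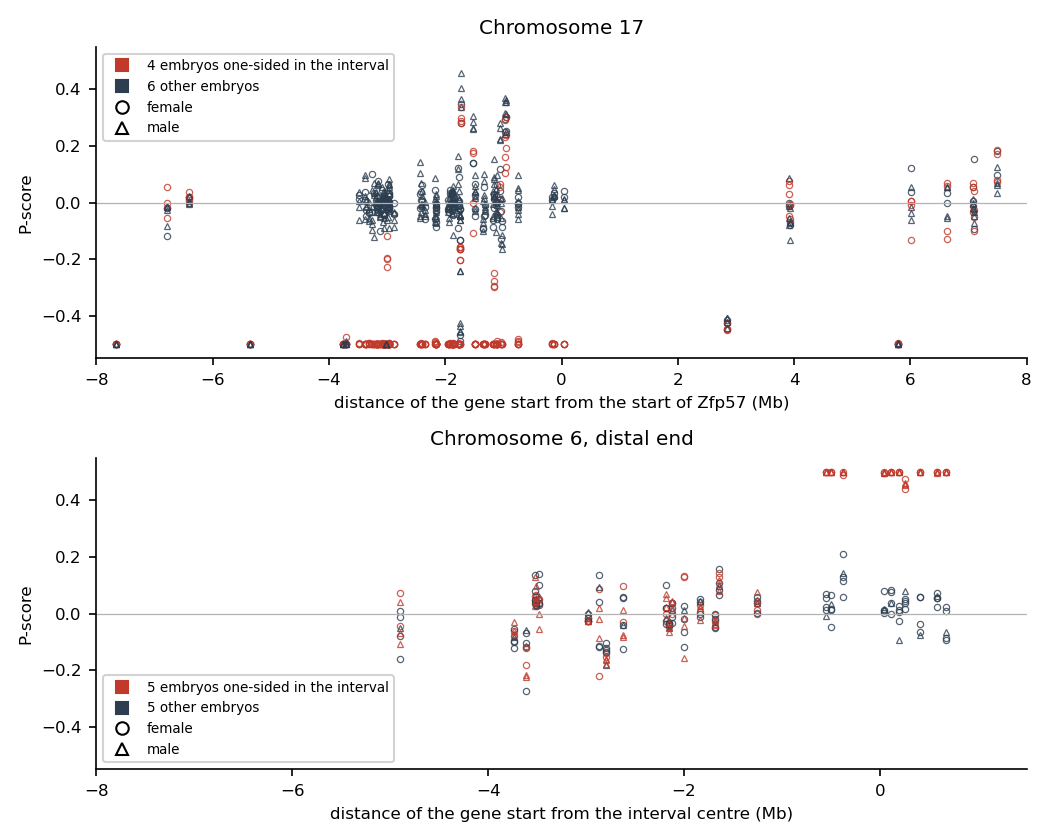
P-score of every tested gene in each of the 10 M+Z+ embryos (circles female, triangles male) by distance in Mb, around Zfp57 on chromosome 17 (top) and around the interval at the end of chromosome 6 (bottom). Embryos one-sided in the interval are red, 4 at -0.5 on chromosome 17 and 5 at 0.5 on chromosome 6, and outside the intervals their points mix with those of the other embryos.

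The chromosome 17 interval holds the major histocompatibility complex and Zfp57. In the 4 WT3 and WT4 females nearly all reads of its split genes were assigned to 129, with 9 to 25 DBA-assigned and 48826 to 52062 129-assigned reads per embryo, a DBA share of 0.0173 to 0.0489%. In the other 2 females and the 4 males the paternal share was 50.03 to 50.66%. Rps18, a ribosomal protein gene of the interval with 11912 allele reads per embryo, stood at a mean of -0.5 in the WT3 and WT4 females and at 0.0135 in the other 6 embryos, and Tubb5, a tubulin, at -0.5 and 0.0215. Over the same 71 genes the 7 M-Z- embryos had a paternal share of 0.0220 to 0.0446% and the 6 M-Z+ embryos of 50.22 to 50.64%. The interval holds 91 tested genes, and the 20 that were not split did not all follow, such as H2-T22 and H2-T23, which had means of 0.184 and 0.437 in M-Z- embryos and of 0.317 and 0.444 in M-Z+.

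On both sides of the interval the WT3 and WT4 embryos were like the others. Glo1 (chr17:30729807-30749604) had P-scores from -0.00286 to 0.0377 in them and from -0.00673 to 0.0215 in the other 6. Cenpq (chr17:41057758-41071523) ranged from -0.0486 to 0.0755 and from -0.0809 to 0.0859. Between these genes and the interval lie genes one-sided in all 10 embryos, such as U2af1, so the ends of the interval were not placed more closely.

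Zfp57 itself had no allele read. The 5 tested genes nearest to it, Gabbr1, Trim10, Trim26, Trim39 and Rpp21, 35237 to 743317 bases away, had means of -0.5 to -0.493 in the WT3 and WT4 females and of 0.000107 to 0.0347 in the other 6 embryos. The genes with the largest SD over the 10 embryos at 50 or more allele reads were Nfkbil1 (0.300), Bicd1 (0.288), H2-Ke6 (0.286), Tcf19 (0.282) and Gtf2h4 (0.281). 4 of these lie in the chromosome 17 interval and Bicd1 in that of chromosome 6. Their 10 embryos fell into separate groups, and none of the 5 was called.

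Of 13 tested genes named H2 in the major histocompatibility complex, most of which present antigens to immune cells, though H2-Ke6 encodes a steroid dehydrogenase, 6 were called, where 17.8% of all tested genes were, and 3 were split. The 6 include H2-T22 with H2-T9 and H2-D1 with H2-L, pairs that overlap. H2-T23, H2-T22, H2-T9 and H2-Q10 were paternal, with means of 0.466, 0.262, 0.270 and 0.164, and H2-D1 and H2-L, which share their reads, were maternal at -0.124 ± 0.0752. Without the WT3 and WT4 females the mean of H2-D1 and of H2-L was -0.0920, and the call was lost. H2-T22 was lower in the WT3 and WT4 females (0.197) than in the other 6 embryos (0.305), and so was H2-Q10 (0.0624 and 0.233). These are paralogues that resemble each other, so their values are uncertain. H2-Ab1, H2-DMa and H2-Q4 were not called and had means below 0 over all 10 embryos but of 0.119, 0.108 and 0.131 without the WT3 and WT4 females.

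The chromosome 6 interval divided the embryos in another way. Its split genes were one-sided and paternal in female replicate 2, a WT3 female and male replicates 2, 3 and 4, with a paternal share of 99.0 to 99.5%, and near balance in the other 5 embryos, at 52.2 to 55.2%. Ipo8, a nuclear import factor of the interval with 807.6 reads per embryo, ranged from 0.00177 to 0.5, and Tmtc1 from -0.0473 to 0.5. Ccdc91, the nearest tested gene before the interval, ranged from 0 to 0.0774 in the 5 one-sided embryos and from 0.00138 to 0.0580 in the other 5. Of the 6 M-Z+ embryos 4 were one-sided here, with 1 more at 69.3% paternal reads, and of the 7 M-Z- embryos 2 were one-sided, with 1 more at 71.0%. Both sexes were in both groups.

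Allelic balance was compared between the sexes of the M+Z+ embryos. edgeR's quasi-likelihood test called 0 of 6496 genes (0.0%), with 350 at an unadjusted p below 0.05 and a smallest adjusted p of 0.844. DESeq2's Wald test called 67, all with a higher P-score in males. Of these, 66 lie within 10 Mb of Zfp57, where 4 of the 6 females and none of the males were maternal-sided. Without the WT3 and WT4 females edgeR again called 0 genes, and no DESeq2 count without them is given here. Tested alone, the females gave 1153 and the males 1155 allele-biased genes, and 972 were shared, 84.3% of the female and 84.2% of the male calls, with 0 in opposite directions. Of the 1157 genes called over all embryos, 1054 had the same side and at least 0.1 in size in both sexes.

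The spread between embryos followed depth. For genes below 0.1 in size, the median SD of the P-score was 0.108 at 20 to 50 allele reads per embryo, 0.0595 at 50 to 200, 0.0304 at 200 to 1000 and 0.0152 at 1000 or more. The share of genes called was 27.7, 18.5, 12.2 and 16.6% in the same order. Values from genes near the minimum of 20 reads are thus the least certain. Intervals and upper limits given here cover counting error only, because PCR copies of a molecule could not be told from separate molecules. The upper limits also assume that variants are placed on the right allele.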

How the data were processed

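The deposited tables held raw counts of reads per gene and embryo, and raw counts of allele-assigned reads per gene, embryo and parental allele, none of them normalised. The authors aligned reads to mm9 with STAR 2.7.8a and counted them with featureCounts (Subread 2.0.1), and made the allelic counts by calling variants with GATK in hybrid embryos, masking these in mm9, aligning with STAR, sorting reads to the 129 or DBA allele with SNPsplit and running featureCounts on each. The options of the last step are not given in the sources used here. A gene without a variant between the strains has no allele read, and a variant wrongly placed on an allele moves all its reads to the other side.

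Columns headed WT were read as M+Z+ embryos. Since WT3 and WT4 each headed more than 1 female embryo, columns of that table were taken by position within an allele, and those 4 embryos carry no replicate number. Another 13 columns of per-sample values were not used.

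Allele counts were fitted in edgeR 4.0.16 (limma 3.58.1, R 4.3.3) with glmQLFit and glmQLFTest, with the embryo as a block and the same library size for both alleles of an embryo. The alleles are paired because they come from the same embryo. Sex and genotype differences were tested as interactions with the allele. p-values were adjusted over all 6496 genes by Benjamini-Hochberg, and a difference was called when the adjusted p was below 0.05 and mean P-scores lay at least 0.1 apart. P-scores were computed for embryos with more than 10 allele reads of a gene, and averaged over at least 3. A count of 0 was taken to allow 3 counts. On data simulated for these 6496 genes, allelic ratios of 2 and 4 were recovered in 99% and 100% of changed genes in the allele comparison, 81% and 100% in the sex comparison and 91% and 100% in the M-Z- comparison. In the simulation every gene had the same fixed spread, and unchanged genes were balanced. It held no one-sided or split genes, so recovery in the real data may be lower. Promoter windows were read from the NCBIM37 (mm9) genome.

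The genes named were every tested gene of the imprinted list; outside it, the 10 largest paternal and 10 largest maternal means among called genes with at least 50 reads and the same side in all 10 embryos; the 5 largest SDs; up to 5 called genes with the largest sex difference; the 5 tested genes nearest Zfp57; the tested genes of short lists of strain-specific, histocompatibility, whole-embryo, decidual, trophoblast and adult lymphocyte genes; and up to 4 ribosomal protein genes. Values of some genes are not reported here. The embryos, the lists and the tests were chosen with earlier results of these data known. Of 5 adult lymphocyte genes 4 were in the tables, and they summed to 0.417 to 1.77 CPM. Alternatives comprised other thresholds, scalings, filters and tests (DESeq2 1.42.0, an exact sign-flip test), each embryo left out in turn, each sex alone and, added after seeing the data, the WT3 and WT4 embryos left out together.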

Additional observations from a re-analysis of the deposited data

Results flagged for a closer look

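The P-scores of 118 genes were examined over the M+Z+ embryos, both sexes as 1 group per gene. An embryo lay far from the rest in 9 genes, and how many chance would give was not tested. These embryos were female replicate 2 for AF357359 (-0.241), male replicate 4 for Ano1 (0.0303) and Zdbf2 (0.208), male replicate 3 for Epcam (-0.0727) and Slc38a4 (0.481), the first WT4 female for Chp1 (-0.318), and the second WT4 female for Id3 (-0.312), Magel2 (0.413) and Zfp992 (0.0714).

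The allelic balance of 100 genes differed between M-Z- and M+Z+ embryos by the interaction of allele and genotype. The differences below are P-scores of M-Z- minus M+Z+. On the maternal chromosome side the difference was 0.515 for Meg3, 0.491 for AF357359, 0.443 for Rian and 0.208 for Phactr2. In the Snrpn cluster it was -0.716 for A230057D06Rik, -0.700 for A330076H08Rik, -0.518 for Snhg14, -0.516 for Snrpn, -0.507 for Snurf, -0.493 for Ndn, -0.470 for Magel2, -0.459 for Peg12 and -0.455 for Mkrn3. Elsewhere it was -0.538 for Plagl1, -0.458 for Hymai, -0.464 for Usp29, -0.436 for Zdbf2, -0.400 for Dlk1, -0.351 for Inpp5f, -0.292 for Peg13 and -0.267 for Impact.

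In M-Z+ against M+Z+ embryos 10 genes differed by the same test. The difference in P-score, M-Z+ minus M+Z+, was -0.628 for A230057D06Rik, -0.531 for A330076H08Rik, -0.394 for Mkrn3, -0.372 for Snrpn, -0.368 for Snhg14, -0.363 for Snurf, -0.354 for Ndn, -0.353 for Magel2, -0.312 for Peg12 and -0.229 for Zdbf2.

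In males, which have no paternal X chromosome, the reads of 11 X-linked genes were nevertheless assigned to the father's allele, at 0.4 or above. Among these genes were Tro, Bex4, Haus7, Atp6ap1, Rbmx2, Morf4l2, Prrg1, G6pdx, Las1l and Nlgn3. Their lowest mean was 0.341 in male M-Z+ and 0.378 in male M-Z- embryos.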

How the results depend on the processing

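The 1157 allele-biased genes became 2496 without a minimum P-score, and from 772 to 1409 under the other alternatives, with 1143 to 1161 on leaving out single embryos. Of the 44 tested list genes, 35 had the same call under every alternative. Begain, Chrac1 and H13 lost theirs at a P-score of 0.2, Chrac1 also in females alone, Ago2, Ano1, Gnas, Smoc1 and Ube3a gained one without a minimum, and Herc3 gained one without the pairing and without genes near Zfp57. Among named genes called under the alternative or over all embryos, the direction turned for H2-Ab1 (0.119), H2-DMa (0.108) and H2-Q4 (0.131) without the WT3 and WT4 females, and for H2-Ab1 (0.145) and H2-DMa (0.119) in males alone, none of them called over all embryos. With no pairing of the alleles within an embryo (no replicate block), 1176 genes were called.

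The 0 genes that differed between the sexes by edgeR became 67 by DESeq2, 1 without genes within 10 Mb of Zfp57, and 0 to 1 when each embryo was left out, the 1 arising without female M+Z+ replicate 1. The 100 genes that differed in M-Z- became 27 without genes within 10 Mb of Zfp57, 24 in females alone and 158 in males alone. They ranged from 60 to 109 when each embryo was left out, with 60 without female M-Z- replicate 4, 66 and 65 without female M+Z+ replicates 1 and 2, and 66, 65 and 65 without male M+Z+ replicates 1, 2 and 3. The 10 that differed in M-Z+ became 6 without genes that overlap another gene, and 10 to 12 when each embryo was left out. The cause of these changes was not tested.

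Depth limits the values of single genes. A gene at 20 to 50 allele reads had a median SD of 0.108, close to the minimum bias of 0.1. List genes without a variant between the strains gave no value at any depth.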
